A study of Mus musculus with 6 samples.

Results

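The growth hormone axis of the liver was described through 10 genes: Ghr, Stat5a, Stat5b, Socs2, Cish, Igf1, Igfals, Bcl6, Hsd3b5 and Cux2. All 25 probe sets annotated to exactly 1 of these genes were taken, whatever their signal, out of 45037 probe sets and 18193 named genes measured. The 10 genes were listed by name, but with earlier results of these data known, so counts over them are a description. Liver RNA came from male A/J-12SM consomic mice, in which chromosome 12 of SM/J stands on the A/J background, and from male A/J mice. Both strains ate the high-fat diet for 7 weeks, from 6 to 13 weeks of age by the schedule given for mice of these strains. Each strain had 3 one-colour Affymetrix arrays, and each array held RNA combined from 3 mice, so an array stands for a group of mice. No other allele or agent differs between the strains by the labels, and none of the 10 genes lies on chromosome 12.

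Growth hormone from the pituitary binds its receptor on the hepatocyte, and the kinase bound to the receptor activates the transcription factors STAT5A and STAT5B. STAT5 raises Igf1 and Igfals, whose products circulate together, and it raises Socs2 and Cish, whose products turn the receptor signal down. In male mice growth hormone is released in pulses, in females more steadily, and this pattern sets much of the sex difference in liver genes. BCL6 is a repressor that binds many of the same sites as STAT5 and is more abundant in males. CUX2 is a repressor found mainly in female liver, and Hsd3b5 encodes a steroid dehydrogenase typical of male mouse liver.

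STAT5 binds a palindrome that reads TTCNNNGAA on either strand. Promoter windows from RefSeq on GRCm38.p6, each from 250 bases before to 50 bases after a transcription start, were held for 9 of the 10 genes, 16 windows in all; Socs2 had none in the table used. The palindrome stood in 5 of the 16 windows, those of Cish, Bcl6 and Igfals, against 8.3% of all 32851 windows. These matches are shown with their neighbouring bases, since they are all the matches found in the windows of the 10 genes; capitals mark the palindrome.
Cish, chr9:107296654-107296683, plus strand: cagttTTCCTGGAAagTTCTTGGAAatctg
Bcl6, chr16:23988952-23988980, minus strand: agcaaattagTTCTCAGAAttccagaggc
Bcl6, chr16:23981433-23981461, minus strand: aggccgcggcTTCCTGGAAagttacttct
Bcl6, chr16:23981387-23981415, minus strand: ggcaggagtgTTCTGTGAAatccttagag
Bcl6, chr16:23981353-23981381, minus strand: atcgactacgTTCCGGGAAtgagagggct
Igfals, chr17:24877598-24877626, plus strand: gatctataatTTCTCAGAAaagaggctga
Igfals, chr17:24878163-24878191, plus strand: ctgccaggtgTTCCTAGAAgaggccctgg
The Cish stretch holds 2 copies, the first of which begins on the first transcribed base. The same arms with 4 bases between them were found in the window of Hsd3b5 alone among these genes and in 6.95% of all windows. A match is a run of letters and was not measured as a site of binding.

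Signals are given as log2 values after quantile normalization, which brings all arrays to 1 distribution, and differences are A/J-12SM minus A/J on that scale. Before this step the trimmed mean signal was 171 to 186 on the A/J-12SM arrays and 201 to 213 on the A/J arrays, and the median difference over all probe sets was -0.22. A/J-12SM replicate 3 stood apart in the ratio of the 5′ to the 3′ actin control (0.423, against 0.553 to 0.590 on the other arrays), while its Gapdh ratio of 1.53 lay within the range of the others, 1.45 to 1.55. The hepatocyte genes Apoa1 and Ttr were among the brightest on every array, with mean log2 signals of 14.56 and 14.21. The labels give no more on the replicates than that they are biological, so p-values measure the spread between these arrays.

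Across the 10 genes, Socs2 and Hsd3b5 had higher signals in A/J-12SM than in A/J liver without overlap of the arrays, while the receptor and the STAT5 factors differed little by their brightest probe sets. No member probe set passed an adjusted p under 0.05 in limma, where 0.0555% of all probe sets and 0.066% of all genes did, and the lowest adjusted p among the 25 was 0.352. At an unadjusted p under 0.05 there were 6 of 25, or 24%, against 6.23% of all probe sets. Of these, 5 were higher in A/J-12SM, against 3.23% of all probe sets, and 1 was lower, against 3.01%. The arrays did not overlap for 5 of 25, or 20%, against 12% of all probe sets, with 4 higher (6.13% of all) and 1 lower (5.83% of all). Brighter probe sets vary less between replicates, and among the 20 members at or above the median brightness 5 had an unadjusted p under 0.05, against 7.6% of all probe sets that bright, and 5 did not overlap, against 13.8%. The 6 belong to 5 genes, and probe sets of 1 gene are not separate observations. By the brightest probe set of each gene, 7 genes had higher and 3 had lower values, with a median log2 fold change of 0.09 beside -0.01 over all genes; under the values as deposited the split was 5 higher and 5 lower. At that level 2 of 10 genes had an unadjusted p under 0.05, against 6.78% of all genes, and the same 2 did not overlap between the strains, against 12.3% of all genes. Both were higher, against 5.97% of all genes.

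**Figure D1:**
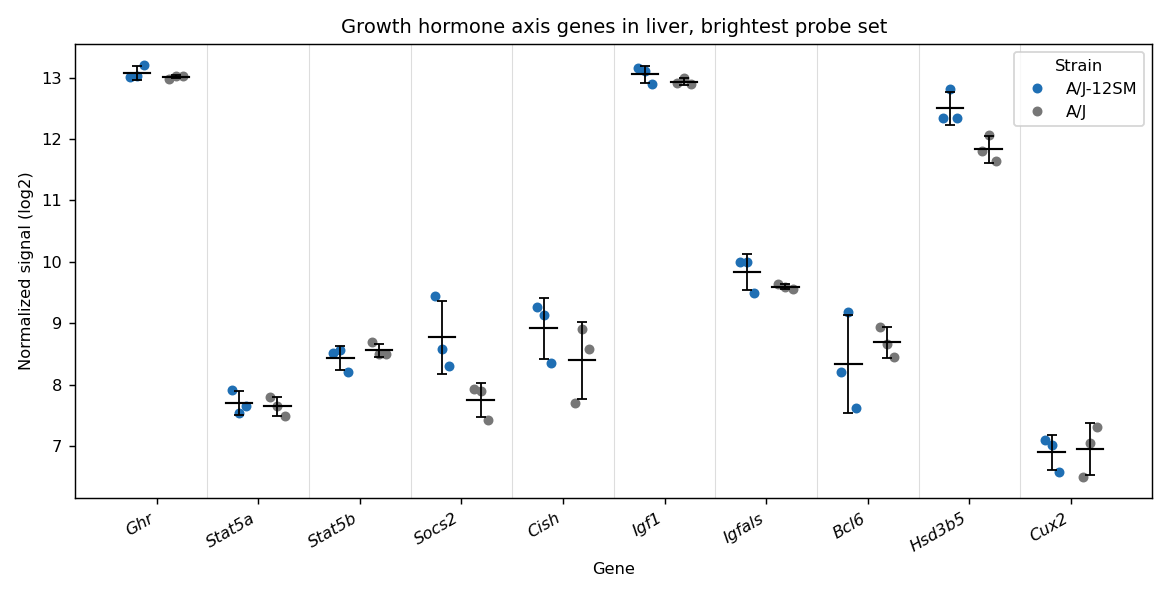
The 10 genes (x axis) by the normalized log2 signal of their brightest probe set (y axis), with a point for every A/J-12SM (blue) and A/J array (grey), a line at each mean and a bar for the SD over 3 arrays. The blue points of Socs2 (8.30 to 9.44) and Hsd3b5 (12.34 to 12.81) all lie above the grey ones, and those of the other 8 genes overlap.

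Ghr, the growth hormone receptor on chromosome 15 (GRCm38.p6, 3317755 to 3583352), had nearly the same signal in both strains after quantile normalization. Its brightest probe set read 13.002, 13.032 and 13.211 on the A/J-12SM arrays and 12.984, 13.025 and 13.025 on the A/J arrays. The arrays overlapped, and the log2 fold change was 0.070 (SE 0.087, adjusted p = 0.924 from limma), with a 95% interval of 0.917-fold to 1.202-fold. The other probe sets gave 0.026 (SE 0.090) and -0.071 (SE 0.14). The dimmest of the 3 read 10.66 on A/J-12SM replicate 3 and 11.05 to 11.23 on the other 5 arrays. Under the values as deposited, whose median over all probe sets lies lower in A/J-12SM, the brightest probe set gave -0.026. It gave 0.21 with each array centred on its median and 0.18 with arrays scaled to 1 trimmed mean.

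Stat5a and Stat5b, the paired STAT5 genes, lie next to each other on chromosome 11, from 100859351 to 100885169 and from 100780731 to 100859004. The brightest Stat5a probe set read 7.91, 7.54 and 7.65 in A/J-12SM and 7.80, 7.65 and 7.49 in A/J liver, a difference of 0.054 (SE 0.15, adjusted p = 0.968 from limma). It was -0.18 under the values as deposited, and also changed sign with single arrays left out. The second Stat5a probe set had lower values. It read 6.95, 6.72 and 6.03 in A/J-12SM and 7.27, 6.99 and 7.12 in A/J liver, so that all 3 A/J-12SM arrays lay below all 3 A/J arrays. Its log2 fold change of -0.56 (SE 0.24) had a p of 0.0418 before and of 0.798 after adjustment in limma, and was -0.29 without A/J-12SM replicate 3, the array with the lowest actin ratio. Stat5b read 8.51, 8.57 and 8.21 in A/J-12SM and 8.69, 8.49 and 8.50 in A/J liver, a difference of -0.13 (SE 0.13, adjusted p = 0.899 from limma). By the dimmer probe set the difference was -0.31 (SE 0.19) with overlap. Both of these are lowest on A/J-12SM replicate 3. STAT5A and STAT5B are close relatives in sequence, and the share of a signal that comes from the other gene was not tested.

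Socs2, the inhibitor that marks growth hormone receptors for breakdown and whose loss gives oversized mice, had the largest difference among the brightest probe sets of the 10 genes. It lies on chromosome 10 from 95383903 to 95417321. The brightest of its 6 probe sets read 9.44, 8.58 and 8.30 in A/J-12SM and 7.92, 7.90 and 7.43 in A/J liver. In deposited signal units these arrays had 616, 370 and 288 against 274, 253 and 181. Every A/J-12SM array lay above every A/J array on both scales. The means were 8.77 ± 0.59 in A/J-12SM and 7.75 ± 0.28 in A/J liver (SD, n = 3 each). The log2 fold change of 1.02, or 2.03-fold (SE 0.26, 95% interval 1.35-fold to 3.05-fold), had a p of 0.0032 before and of 0.485 after adjustment in limma, so it did not pass. The exact two-sided permutation test gave p = 0.1, the smallest that 3 arrays against 3 allow.

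The second Socs2 probe set gave a difference of like size. It read 8.66, 8.26 and 7.63 in A/J-12SM and 7.06, 7.26 and 6.92 in A/J liver. Its log2 fold change was 1.10 (SE 0.23, adjusted p = 0.352 from limma), and its p stood 115th from the lowest of all 45037 probe sets. Without A/J-12SM replicate 3, its lowest array of that strain, the difference was 1.38 and passed (adjusted p = 0.0472 from limma), while over all the alternatives its adjusted p in limma ranged from 0.0472 to 0.788. The third, dimmer than both, did not overlap after normalization, at 6.37, 6.32 and 6.27 in A/J-12SM and 6.09, 6.19 and 5.40 in A/J liver (0.43, SE 0.26), though its deposited signals did, at 72.0, 79.5 and 69.2 in A/J-12SM and 78.9, 80.6 and 40.8 in A/J liver. The other 3 were below the median brightness of 5.33, varied widely between replicates and gave 1.78 (SE 1.05), -0.68 (SE 0.74) and 0.39 (SE 0.83).

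Cish, the related inhibitor that competes for STAT5 docking sites on the receptor, lies on chromosome 9 from 107296659 to 107302784. It read 9.26, 9.14 and 8.35 in A/J-12SM and 7.70, 8.91 and 8.58 in A/J liver. Both highest arrays were A/J-12SM arrays, but the strains overlapped, since A/J-12SM replicate 3 lay below A/J replicates 2 and 3. The log2 fold change of 0.52 had an SE of 0.31 (adjusted p = 0.835 from limma) and an interval of 0.886-fold to 2.32-fold. Much of it rests on A/J replicate 1, the lowest array, without which it was 0.17. It was 0.80 without A/J-12SM replicate 3 and 0.29 under the values as deposited.

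**Figure D2:**
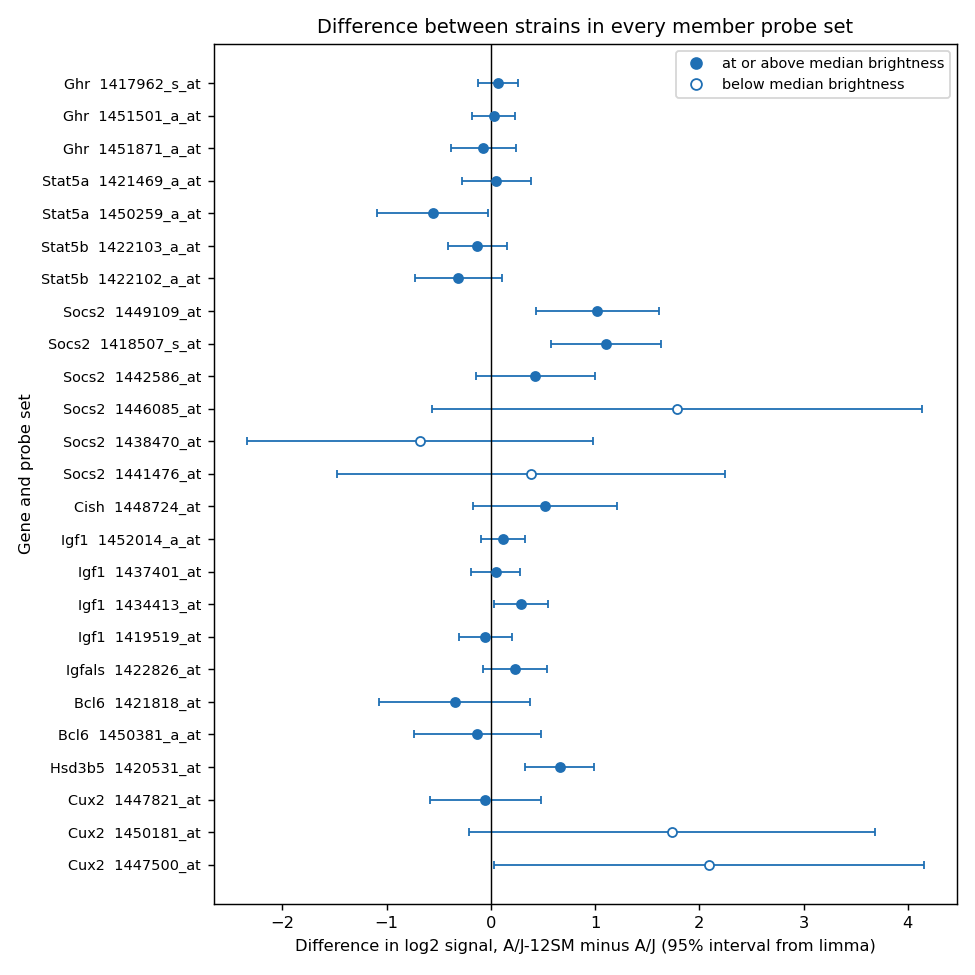
Difference in log2 signal, A/J-12SM minus A/J (x axis), for each of the 25 probe sets of the 10 genes (y axis), with 95% intervals from limma; filled points are at or above the median brightness of all probe sets and open points below it. The intervals of the 2 brightest Socs2 probe sets, of Hsd3b5, of the third Igf1 and of the dimmest Cux2 probe set lie above 0, that of the second Stat5a probe set lies below 0, and those of the open points are the widest.

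Igf1, the growth factor that the liver secretes in answer to growth hormone, was bright in both strains and, after quantile normalization, close between them. It lies on chromosome 10 from 87858265 to 87937047 and has 4 probe sets. The brightest read 13.156, 13.101 and 12.894 in A/J-12SM and 12.909, 12.996 and 12.894 in A/J liver. The lowest A/J-12SM array equalled the lowest A/J array, and the difference was 0.12 (SE 0.09, adjusted p = 0.879 from limma), with an interval of 0.938-fold to 1.25-fold. With each array centred on its median this difference was 0.29. With arrays scaled to 1 trimmed mean it was 0.26, with a p of 0.0241 before and of 0.758 after adjustment in limma. The third read 12.40, 12.19 and 12.07 in A/J-12SM and 11.74, 11.96 and 12.08 in A/J liver, with overlap by 1 array. Its log2 fold change of 0.29 (SE 0.12) had a p of 0.0309 before and of 0.776 after adjustment in limma. The second gave 0.047 (SE 0.10) and the dimmest -0.052 (SE 0.12).

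Igfals, the acid-labile subunit that keeps IGF1 in the circulation in a complex with IGFBP3, lies on chromosome 17 from 24877844 to 24882011. It read 9.997, 10.003 and 9.488 in A/J-12SM and 9.642, 9.596 and 9.550 in A/J liver. On 2 of the 3 A/J-12SM arrays it was above all A/J arrays, and on replicate 3 below them all. The difference was 0.23 (SE 0.14, adjusted p = 0.833 from limma), 0.40 without that array and 0.0092 under the values as deposited.

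Hsd3b5, the male-type steroid dehydrogenase, had the lowest unadjusted p among the brightest probe sets of the 10 genes. It lies on chromosome 3 from 98618636 to 98645534. It read 12.34, 12.81 and 12.34 in A/J-12SM and 11.80, 12.07 and 11.64 in A/J liver, or 4726, 7166 and 4911 against 3867, 4445 and 3407 in deposited signal units. No array overlapped between the strains on either scale. The means were 12.50 ± 0.27 and 11.84 ± 0.22 (SD, n = 3 each) in A/J-12SM and A/J liver. The log2 fold change of 0.66, or 1.58-fold (SE 0.15, 95% interval 1.26-fold to 1.99-fold), had a p of 0.00136 before and of 0.392 after adjustment in limma. The exact two-sided permutation test again gave p = 0.1. Over the alternatives it stayed between 0.50 and 0.78, and the adjusted p in limma between 0.0715 and 0.881. Mouse Hsd3b genes are a cluster of close copies, and the share of this signal that comes from other copies was not tested.

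Bcl6, the male-biased repressor, was found on chromosome 16 (23965050 to 23988866). The brighter of its 2 probe sets read 8.21, 9.19 and 7.62 in A/J-12SM and 8.94, 8.67 and 8.45 in A/J liver. The A/J-12SM arrays held both the highest and the lowest value of all 6, with an SD of 0.79 against 0.25. Its difference was -0.35 (SE 0.32), with an adjusted p of 0.895 in limma, and was 0.018 without A/J-12SM replicate 3. The other probe set gave -0.13 (SE 0.27) and 0.18 without that array.

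Cux2, the female-type repressor, was found on chromosome 5 (121857962 to 122050415). The brightest of its 3 probe sets read 7.10, 7.02 and 6.57 in A/J-12SM and 6.49, 7.04 and 7.31 in A/J liver, with overlap and a difference of -0.052 (SE 0.24). The other 2 probe sets were below the median brightness and had higher values in A/J-12SM, by 2.09 (SE 0.92) and 1.74 (SE 0.87). The first of them read 4.75, 3.95 and 4.95 in A/J-12SM and 0.28, 3.10 and 3.99 in A/J liver. In deposited units the A/J values were 1.34, 10.6 and 15.1, so the size of this difference rests on the lowest signals of the array. It had a p of 0.0469 before and of 0.8 after adjustment in limma.

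Around the axis, the proteins that bind IGF1 and IGF2 were read from a list of 14 genes of the IGF system. Igfbp2, a liver-made binding protein that rises on fasting and in growth hormone deficiency, read 11.671, 12.073 and 12.0005 in A/J-12SM and 11.16, 10.82 and 10.70 in A/J liver. All A/J-12SM arrays were above all A/J arrays, by 1.02 on the log2 scale or 2.03-fold (SE 0.14). In limma this had a p of 3.07e-05 before and of 0.0512 after adjustment, which just missed the threshold. It passed with each array centred on its median (adjusted p = 0.0471), with arrays scaled to 1 trimmed mean (0.038) and without dim probe sets (0.0266), and over all alternatives the adjusted p in limma ranged from 0.0266 to 0.59.

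Igfbp3, which forms the circulating complex with IGF1 and the product of Igfals, had lower values. Its brighter probe set read 7.64, 7.30 and 6.87 in A/J-12SM and 8.19, 8.20 and 7.90 in A/J liver. Its other probe set also did not overlap, and the log2 fold changes were -0.83 (SE 0.19) and -0.66 (SE 0.17), with adjusted p = 0.432 and 0.485 from limma. Igfbp1, an insulin-repressed binding protein, read 8.91, 8.99 and 10.11 in A/J-12SM and 8.82, 8.14 and 8.84 in A/J liver, a gap of 0.74 (SE 0.30, with 0.789 as its adjusted p from limma) that was 0.35 without A/J-12SM replicate 3. Its deposited signals overlapped, at 432, 488 and 1027 in A/J-12SM and 500, 298 and 497 in A/J liver. Igfbp5 differed by -0.17 (SE 0.27) with overlap. Over the list 8 genes had higher and 6 had lower values, with a median of 0.036 (-0.13 under the values as deposited) beside -0.01 over all genes, and none passed adjustment. In rat liver Igfbp3 mRNA is found in cells other than hepatocytes. All 10 Kupffer cell and macrophage markers had lower values in A/J-12SM, beside 9258 of all 18193 genes. Their median was -0.27 (-0.50 under the values as deposited), and 9 of the 10 were lower without A/J replicate 1. As a mean over the list, the arrays deviated by 0.14, -0.20 and -0.39 in A/J-12SM and by -0.016, 0.26 and 0.20 in A/J liver, so the strains overlapped and A/J-12SM replicate 3, the array with the lowest actin ratio, was the lowest. Without that array the median was -0.19, and with any single array left out it ranged from -0.40 to -0.19. Their summed normalized signal ranged from 6043 to 7350 in A/J-12SM and from 6848 to 8466 in A/J liver. The 6 endothelial markers had a median of 0.01, with a summed normalized signal of 4802 to 5191 in A/J-12SM and 4476 to 4622 in A/J liver. Deposited signals, whose level lay lower on the A/J-12SM arrays, were not summed. The part of these cell types in the Igfbp3 result was not tested. In RNA of whole liver, fewer cells of a type cannot be told apart from less RNA per cell.

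**Figure D3:**
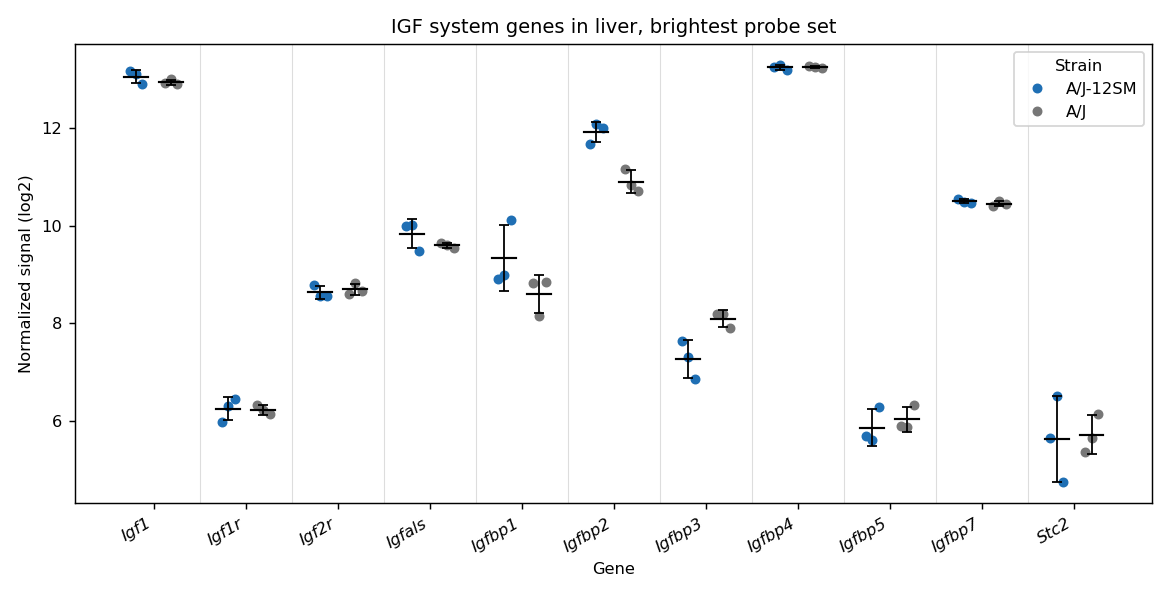
The 11 brighter genes of the IGF system (x axis) by normalized log2 signal (y axis), with a point for every A/J-12SM (blue) and A/J array (grey), a line at each mean and a bar for the SD over 3 arrays. The points of the strains lie apart for Igfbp2 (difference 1.02), Igfbp3 (-0.83) and Igfbp1 (0.74). Before normalization those of Igfbp1 overlapped.

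In receptor signalling, 10 of 19 measured genes had higher and 9 had lower values, with a median of 0.051 (-0.18 under the values as deposited), and none passed adjustment. Socs3, an inhibitor induced by interleukin-6 as well as by growth hormone, read 8.88, 6.86 and 8.28 in A/J-12SM and 7.09, 7.86 and 7.17 in A/J liver. With an SD of 1.04 among the A/J-12SM arrays, its difference of 0.63 (SE 0.43, adjusted p = 0.858 from limma) was within the replicate spread. The second and dimmest Socs3 probe sets gave 0.78 (SE 0.29) and 0.56 (SE 0.28), also with overlap, and the second had a p of 0.0232 before and of 0.749 after adjustment in limma. Irs1, an adaptor of the insulin and IGF1 receptors, differed by 0.34 (SE 0.12, adjusted p = 0.735 from limma), without overlap after normalization. Its deposited signals overlapped, at 663, 617 and 567 in A/J-12SM and 631, 470 and 623 in A/J liver. Ptpn6, a phosphatase of blood cells that dampens cytokine receptors, differed by -0.35 (SE 0.14, adjusted p = 0.776 from limma), without overlap on either scale. A second, slightly dimmer Ptpn6 probe set gave 0.11. Sirpa, a membrane protein of macrophages that binds such phosphatases, differed by -0.26 (SE 0.24) with overlap. Its other probe sets gave -0.24 (SE 0.16) and 0.0093 (SE 0.39), also with overlap. The lower values of the macrophage markers stand beside those of the brightest Ptpn6 and Sirpa probe sets, and their part in these was not tested.

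Among 12 measured regulators tied to growth hormone or to sex differences, 6 had higher and 6 had lower values, with a median of 0.033 (-0.15 under the values as deposited), and none passed adjustment. Foxa2, a hepatocyte transcription factor, differed by 0.39 (SE 0.17, adjusted p = 0.798 from limma) and Foxa1, its relative on chromosome 12, where the strains differ in sequence, by 0.25 (SE 0.18). Trim24, a cofactor of nuclear receptors, gave 0.26 (SE 0.16) and Cebpb, a factor of the acute phase, -0.28 (SE 0.18). The arrays of all 4 overlapped.

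Of 11 measured genes with higher mRNA in male than in female mouse liver, 7 had higher and 4 had lower values in A/J-12SM, with a median of 0.12 (-0.0075 under the values as deposited), and none passed adjustment. Hsd3b5 had the largest difference. Cyp4a12a, a fatty acid hydroxylase of male liver, went the other way at 12.22, 12.37 and 11.75 in A/J-12SM and 12.81, 12.77 and 12.58 in A/J liver, without overlap (-0.61, SE 0.15, adjusted p = 0.45 from limma). Egfr, the receptor for epidermal growth factor, gave 0.58 (SE 0.23) by its brightest probe set, and its 7 probe sets ranged from -0.32 to 0.81, the highest without overlap (SE 0.19). Cyp7b1, an oxysterol hydroxylase, gave 0.30 (SE 0.15) with overlap and 0.43 (SE 0.16) without it by its second probe set, while the third, a dim one, gave -0.48. Deposited signals of that highest Egfr probe set overlapped, with 649 on an A/J-12SM and 704 on an A/J array. Those of the second Cyp7b1 probe set did too, with 2574 on an A/J-12SM and 2659 on an A/J array. C6, a complement protein, gave -0.32 (SE 0.25). The sum of the 11 signals ranged from 57284 to 71089 in A/J-12SM and from 56046 to 62988 in A/J liver.

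Of 17 measured female-biased genes, 7 had higher and 10 had lower values, with a median of -0.052 (-0.30 under the values as deposited), and none passed adjustment. Hao2, a peroxisomal oxidase of hydroxy acids, read 7.90, 7.28 and 8.66 in A/J-12SM and 9.52, 8.42 and 10.07 in A/J liver. Its difference of -1.39 (SE 0.42, adjusted p = 0.622 from limma) was the largest of the 12 brighter genes of this list, though 1 array of each strain overlapped. Cyp17a1, a steroid hydroxylase, differed by 0.84 without overlap (SE 0.25, adjusted p = 0.622 from limma). Cyp2b13, a cytochrome P450 of female liver, gave -0.68 (SE 0.43), and Ntrk2, a neurotrophin receptor, 0.66 (SE 0.31) by its brightest probe set. The other Ntrk2 probe sets were below the median brightness and ranged from -2.25 (SE 0.84) to 2.17 (SE 1.03), the lowest without overlap. A/J-12SM replicate 2 had the lowest mean of this list, -0.45 from the average, against 0.05 and 0.24 on the other A/J-12SM arrays and 0.03 to 0.07 on the A/J arrays. Without that array the median difference of the list was 0.31.

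**Figure D4:**
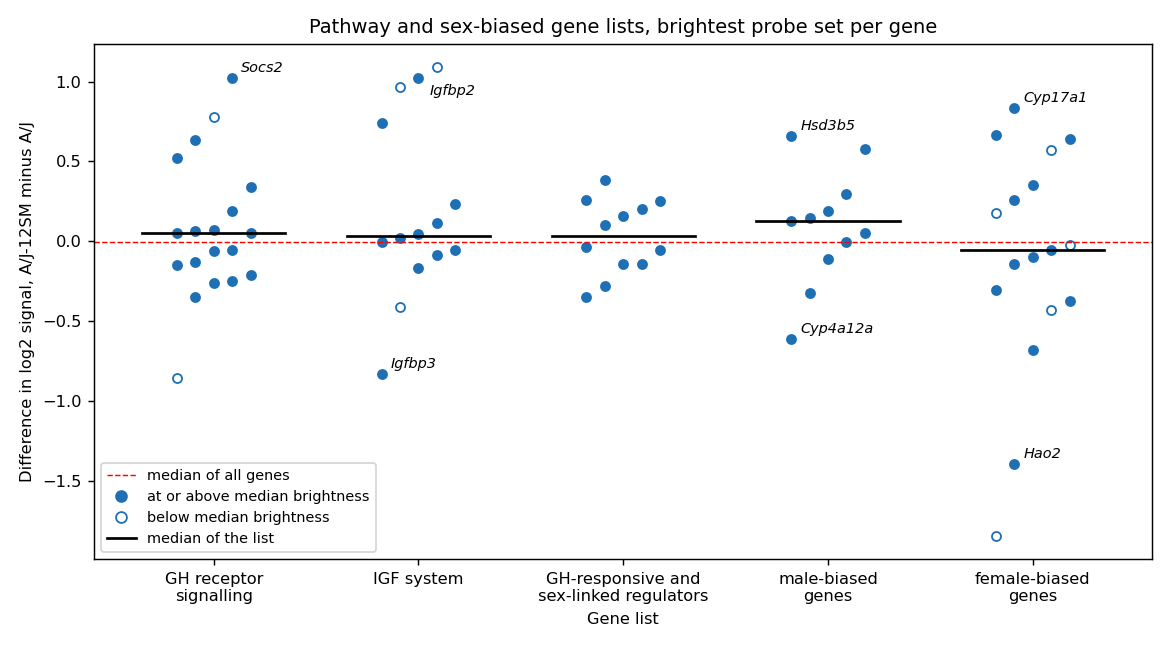
Difference in log2 signal, A/J-12SM minus A/J (y axis), for the genes of 5 lists (x axis), each by its brightest probe set; filled points are at or above the median brightness, open points below it, black lines are list medians and the dashed line is the median of all genes. Each list spreads to both sides of 0, with medians from -0.05 to 0.12.

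Among the other cells of the liver, Csf1r and Vsig4, which mark macrophages, differed by -0.21 (SE 0.12) and -0.24 (SE 0.14). Reln, a protein of stellate cells, and Fcgr2b, an Fc receptor of sinusoidal endothelium, differed by 0.46 and 0.37 without overlap after normalization, while Dcn and Clec4g of the same cells gave 0.019 and -0.032. The deposited signals of Reln overlapped, at 975, 1244 and 1484 in A/J-12SM and 987, 949 and 1116 in A/J liver. Those of Fcgr2b did too, at 1471, 1545 and 1774 in A/J-12SM and 1408, 1314 and 1534 in A/J liver. Other bright Fcgr2b probe sets gave 0.17, 0.29 and 0.076. Lyve1, another endothelial marker, went the other way without overlap (-0.45, SE 0.21, adjusted p = 0.804 from limma). Epcam and Krt19 of bile ducts, Cd8a and Ms4a1 of lymphocytes and Adipoq and Lep of fat cells had mean log2 signals of 1.69 to 5.75 and overlapped between the strains.

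Over the processing settings, the Socs2, Hsd3b5, Igfbp2 and Igfbp3 differences kept their sign each time. Bcl6 did not, as its value without A/J-12SM replicate 3 was 0.018.

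**Figure D5:**
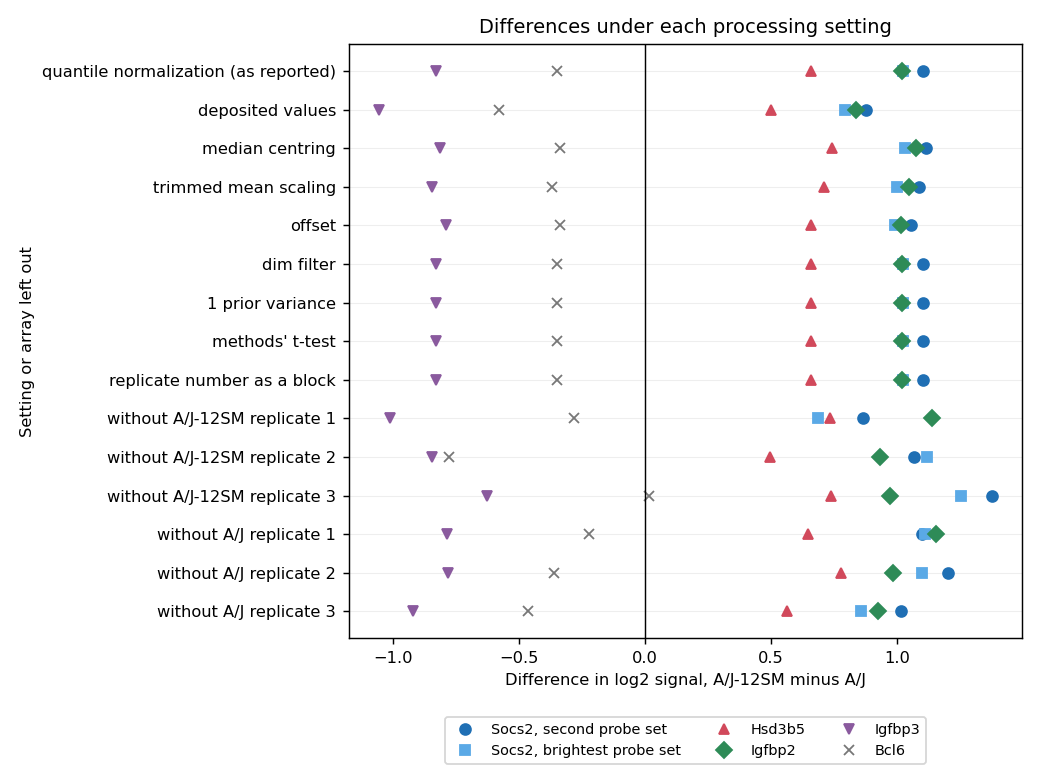
Difference in log2 signal, A/J-12SM minus A/J (x axis), for 2 Socs2 probe sets and for Hsd3b5, Igfbp2, Igfbp3 and Bcl6 under quantile normalization, 8 other settings and with each array left out in turn (y axis); each point is 1 difference. The second Socs2 probe set ranges from 0.87 to 1.38 and Hsd3b5 from 0.50 to 0.78, and Bcl6 crosses 0 without A/J-12SM replicate 3.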

How the data were processed

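The authors deposited intensity values on a linear scale, 1 per probe set and array, which the submitters' processing notes tie to MAS5. The sources used here state neither its version nor the scaling. Groups and replicate numbers came from the labels, and all 6 arrays were used. As array levels differed between the strains, log2 values were quantile-normalized, which removes a true overall difference together with a technical one. After 64 control probe sets were left out, limma 3.58.1 in R 4.3.3 (lmFit, eBayes with a trend on brightness) was fitted to 45037 probe sets without covariates, with Benjamini-Hochberg adjustment over all of them and a threshold of 0.05. The fit was also run on simulated data with independent noise and no shift between arrays, which cannot show how such a shift acts here. Single probe sets were also compared by exact permutation (scipy 1.17.1). Symbols came from the platform annotation, updated through GRCm38.p6 (34741 of 34945 probe sets with 1 gene matched); 932 probe sets with several genes named none. The brightest probe set stood for a gene. The arrays' number limits the precision, and the typical SD between replicates was 0.21 on the log2 scale at or above the median brightness and 0.86 below it. Promoter sequences are RefSeq's. Motifs were searched by exact match in Python 3.11.15, and figures drawn with matplotlib 3.10.9.

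The members and gene lists were chosen with earlier results of these data known. The text names all members, and from each pathway list every gene called plus up to 4 bright non-members with the largest difference, and from each marker list up to 2 of the brightest. Lyve1 and other Socs3, Egfr, Cyp7b1, Ptpn6, Sirpa, Ntrk2, Fcgr2b and Igfbp3 probe sets were added after their values were seen. Alternatives were the deposited values, median centring, scaling to 1 trimmed mean, an offset of 9.2 added to the signals, a filter on probe sets under the 40th percentile of brightness, 1 prior variance, the methods' t-test, the replicate number as a block, the mean over a gene's probe sets and each array left out.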

Additional observations from a re-analysis of the deposited data

How the results depend on the processing

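With 3 arrays per strain, dim probe sets have wide intervals, and no alternative gives more replication. Of 25 probe sets called in all, the deposited values gave 47, and 1 prior variance and the methods' t-test 1 each; with single arrays left out there were 6 (without A/J replicate 2) to 23. Member probe sets called were 0 to 1 with single arrays left out. Their count at an unadjusted p under 0.05 was 6 of 25, beside 6.23% of all probe sets. It was 3 beside 5.36% with 1 prior variance, 2 beside 5.84% by the methods' t-test and 6 beside 13.2% under the deposited values. Genes with lower values were 3 of 10, 5 under the deposited values and 1 to 4 with single arrays left out. With the replicate number as a block, 28 probe sets were called in all, 7 member probe sets had an unadjusted p under 0.05 beside 6.79% of all, and no other call changed. With that block the p in limma was 0.000266 for Socs2 and 5.72e-05 for Hsd3b5, and 0.174 and 0.0715 after adjustment. By the methods' t-test these p-values were 0.0536 and 0.0303 (0.865 and 0.816 after adjustment). With 1 prior variance in limma they were 0.029 and 0.024 (0.894 and 0.881 after adjustment). Deviations of same-numbered arrays correlated at -0.06, 0.09 and 0.16, and those of differently numbered arrays at -0.23 to 0.15. Not every array was nearest to its own number. Such small correlations of 3 arrays per strain cannot tell whether a replicate number marks a shared batch.

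Probe sets of a gene are numbered by brightness, and a gene alone stands for its brightest. Of 23 probe sets followed through the alternatives, 329 values were recomputed, of which 18 changed sign and 4 passed the threshold where the reported value had not (the second Socs2 probe set once, Igfbp2 3 times). Under the deposited values the sign changed for Ghr (-0.026), its second probe set (-0.087), Stat5a (-0.18) and the second Igf1 probe set (-0.091), and with median centring for the fourth Igf1 probe set (0.021). With the mean over a gene's probe sets it changed for Stat5a (-0.25) and Cux2 (1.26). With single arrays left out the values ranged from -0.052 to 0.13 for Stat5a, -0.78 to 0.018 for Bcl6, -0.32 to 0.18 for its second probe set, -0.28 to 0.13 for Cux2, -0.048 to 0.089 for the second Ghr probe set, -0.18 to 0.11 for the third, -0.041 to 0.14 for the second Igf1 probe set and -0.18 to 0.057 for the fourth. List medians under the deposited values were -0.18 for receptor signalling, -0.13 for the IGF system and -0.15 for the regulators, where the median of all probe sets was -0.22. With single arrays left out they ranged from 0.023 to 0.13 for the IGF system and from -0.16 to 0.31 for the female-biased genes. The macrophage markers, recomputed as a choice made after seeing the data, had a median of -0.50 under the deposited values. The cause of these changes was not tested. The palindrome was found for 3 member genes and its longer spelling for 1.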
